A study of Oryctolagus cuniculus with 49 samples.

Results

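The developmental transcription factor families described here are DNA-binding proteins that lay out the eye, the neural crest and the vessels in the embryo, and many of them stay expressed in adult ocular tissue. Members were chosen by gene symbol, as the PAX, sine oculis homeobox (SIX3, SIX6), PITX, OTX, LHX, LMX, MEIS, PBX, HOX, FOX, SOX, TBX, TFAP2, GATA and KLF families together with MITF, with SOX18 left out. This gave 60 of the 12942 genes of the iris and ciliary body table, built from 84 transcripts. They fall into 15 families, of which FOX with 17 genes, KLF with 12 and SOX with 7 were the largest, and no HOX gene was among the listed transcripts.

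RNA was sequenced from the iris and ciliary body of New Zealand white rabbits, an albino laboratory breed. Operated eyes had undergone lensectomy, the removal of the lens, with insertion of an artificial intraocular lens (IOL). The groups were 3 operated eyes at 5 weeks of age, 3 operated eyes at 6.5 weeks, 7 unoperated eyes at 5 weeks, 6 operated eyes at 6 months and 7 unoperated eyes at 6 months. The study asks how the front of the eye responds to this surgery in juvenile and adult rabbits. How long after surgery the eyes were taken is not stated in the sources used here, and unoperated eyes at 6.5 weeks are not analysed here, so surgery and growth cannot be told apart in the 6.5-week group.

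In vertebrate embryos PAX6, SIX3, SIX6, LHX2, OTX2 and SOX2 specify the eye field and the optic cup, whose rim forms the pigmented and unpigmented epithelia of iris and ciliary body. FOXC1, LMX1B and TFAP2B act in the neural crest mesenchyme that builds the iris stroma and the drainage angle, and loss of human PAX6 causes aniridia while human FOXC1 mutations cause Axenfeld-Rieger anomalies. SOX7 and SOX17 belong to the endothelial SOX subgroup, and the Krüppel-like factors (KLF) are zinc finger proteins, several of which are induced quickly by injury, flow or hormones in many tissues.

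Values are FPKM, a fragment count corrected for the length of the transcript and the size of the library, summed over the transcripts of a symbol. The libraries summed to 412936 to 504202 FPKM, and at 6 months the sums of operated eyes, 476369 to 504202, lay above those of unoperated eyes, 431241 to 456586. The lens crystallin CRYAA exceeded 1000 FPKM in 8 libraries, namely 1 of the operated 5-week, 4 of the unoperated 5-week, 2 of the operated 6-month and 1 of the unoperated 6-month eyes. Markers fixed for the tissue were present: 7 of 7 ciliary epithelium, 7 of 8 smooth muscle and 13 of 14 pigment cell genes were measured. Every listed transcript has over 1 FPKM throughout 1 or more of 4 sets of libraries, which are the pooled operated juveniles and the other 3 groups. Of the members 50 met this in all 4 sets. FOXM1 and KLF8 met it only in operated 6-month eyes, FOXD3 and PAX8 only in operated juveniles, PAX3 and SOX2 only in unoperated 5-week eyes and PITX3 only in unoperated 6-month eyes, so that a difference in these genes is in part fixed by the choice of transcripts. MEIS3 met it only in operated juveniles and unoperated 5-week eyes, so its difference between the ages is likewise in part fixed.

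PAX6 had the highest level of the members in every group. Its mean over the 26 libraries was 293 FPKM, which is 20.2% of the FPKM of all members. LHX2, a LIM homeobox gene of the optic cup, followed at 142 FPKM and was second in every group. TBX2 at 71.9, OTX1 at 62.1 and TBX3 at 58.4 FPKM were among the next, in an order that differed between groups. MITF, the regulator of pigment cell genes, averaged 43.0 FPKM. At the low end PAX3 averaged 1.46, KLF8 1.38 and PAX8 0.573 FPKM. The summed level of the members was 1394 ± 162 FPKM in operated 6-month eyes (SD, n = 6) and 1572 ± 59.6 FPKM in unoperated 6-month eyes (n = 7). In juveniles it was 1294 ± 59.9 FPKM in operated (n = 6) and 1497 ± 48.4 FPKM in unoperated eyes (n = 7).

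**Figure D1:**
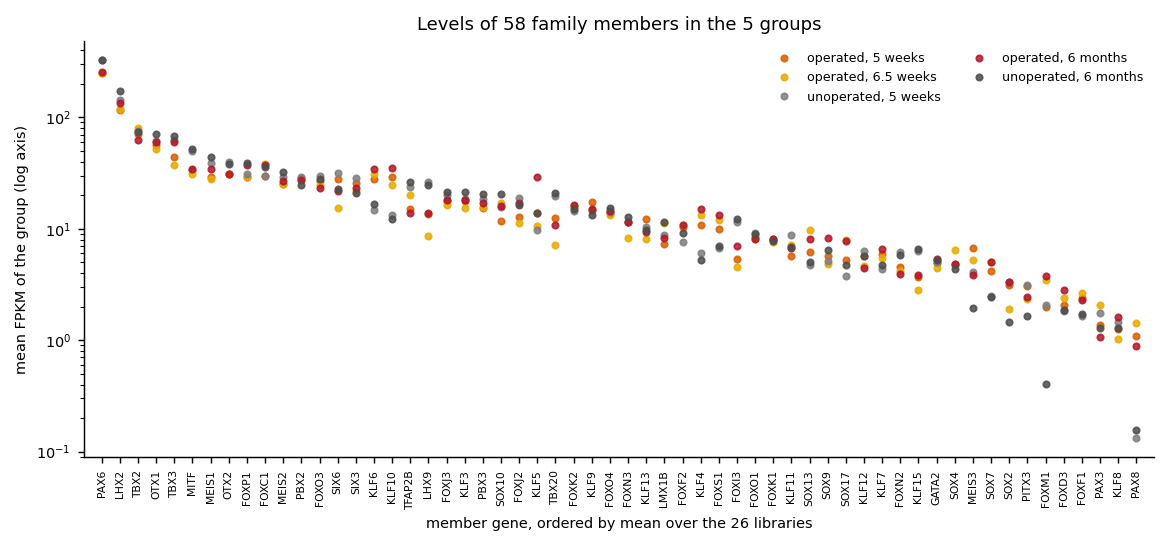
Mean FPKM of 58 members in the 5 groups on a log axis, with genes ordered by their mean over the 26 libraries. PAX6 and LHX2 stand above the rest in every group, and PAX8 is lowest over all libraries, at 0.573 FPKM.

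Surgery was the comparison in which most members differed. Differences were tested with limma on log2(FPKM + 0.5) over all genes, and a gene is said to have risen or fallen where its Benjamini-Hochberg adjusted p is under 0.05. At 6 months 12 members were higher and 22 lower in operated eyes, which is 20% and 36.7% of the 60, beside 16% and 30.1% of all genes tested, of which 46.1% changed in either direction. In juveniles, where the mean of the 2 operated groups is set against unoperated 5-week eyes, 11 were higher and 20 lower, or 18.3% and 33.3%, beside 16.5% and 20.8% of all genes, of which 37.4% changed. The 12 include FOXM1, listed only through operated 6-month eyes, and the 11 include PAX8, listed only through operated juveniles. Both calls are in part fixed by the choice of transcripts. The median log2 change of the members was -0.04 at 6 months and -0.16 in juveniles, beside -0.11 and -0.06 for all genes. With the libraries rescaled by median ratio, the 6-month split was 16 higher and 12 lower, at an equal upper quartile 14 and 16, and at an equal sum 10 and 25, while the median of all genes lay at -0.01, -0.06 and -0.24. Shares of all genes called in these rescaled fits are not given here, so the shifting split is no result about the members. Without the 8 libraries high in CRYAA the counts were 12 higher and 16 lower at 6 months, beside 14.4% and 25.7% of all genes in that fit, and 8 higher and 10 lower in juveniles, beside 9.92% and 10.5%. The groups did not overlap in 14 members at 6 months and in 13 in juveniles, beside 20.9% and 15.7% of all genes. FOXM1 is among the 14 and PAX8 among the 13, with the same limit. No called member changed its direction in any alternative.

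The 9 members higher at both ages were KLF10, KLF4, KLF6, KLF7, SOX7, SOX17, FOXS1, SOX13 and PAX8, the last listed only through the operated juveniles. The 15 members lower at both ages included PAX6, LHX2, LHX9, OTX2, MITF, MEIS1, MEIS2, PBX3, TBX20, TFAP2B, KLF15, FOXI3, FOXJ3 and FOXN2. No member was called in opposite directions at the 2 ages. These are whole tissue RNA levels, so fewer cells of a type and less RNA per cell cannot be told apart. All 26 libraries carry their own sample number, but the labels do not say whether a number marks an animal or an eye. Libraries may therefore include both eyes of an animal, and the p-values measure only the spread between these samples.

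**Figure D2:**
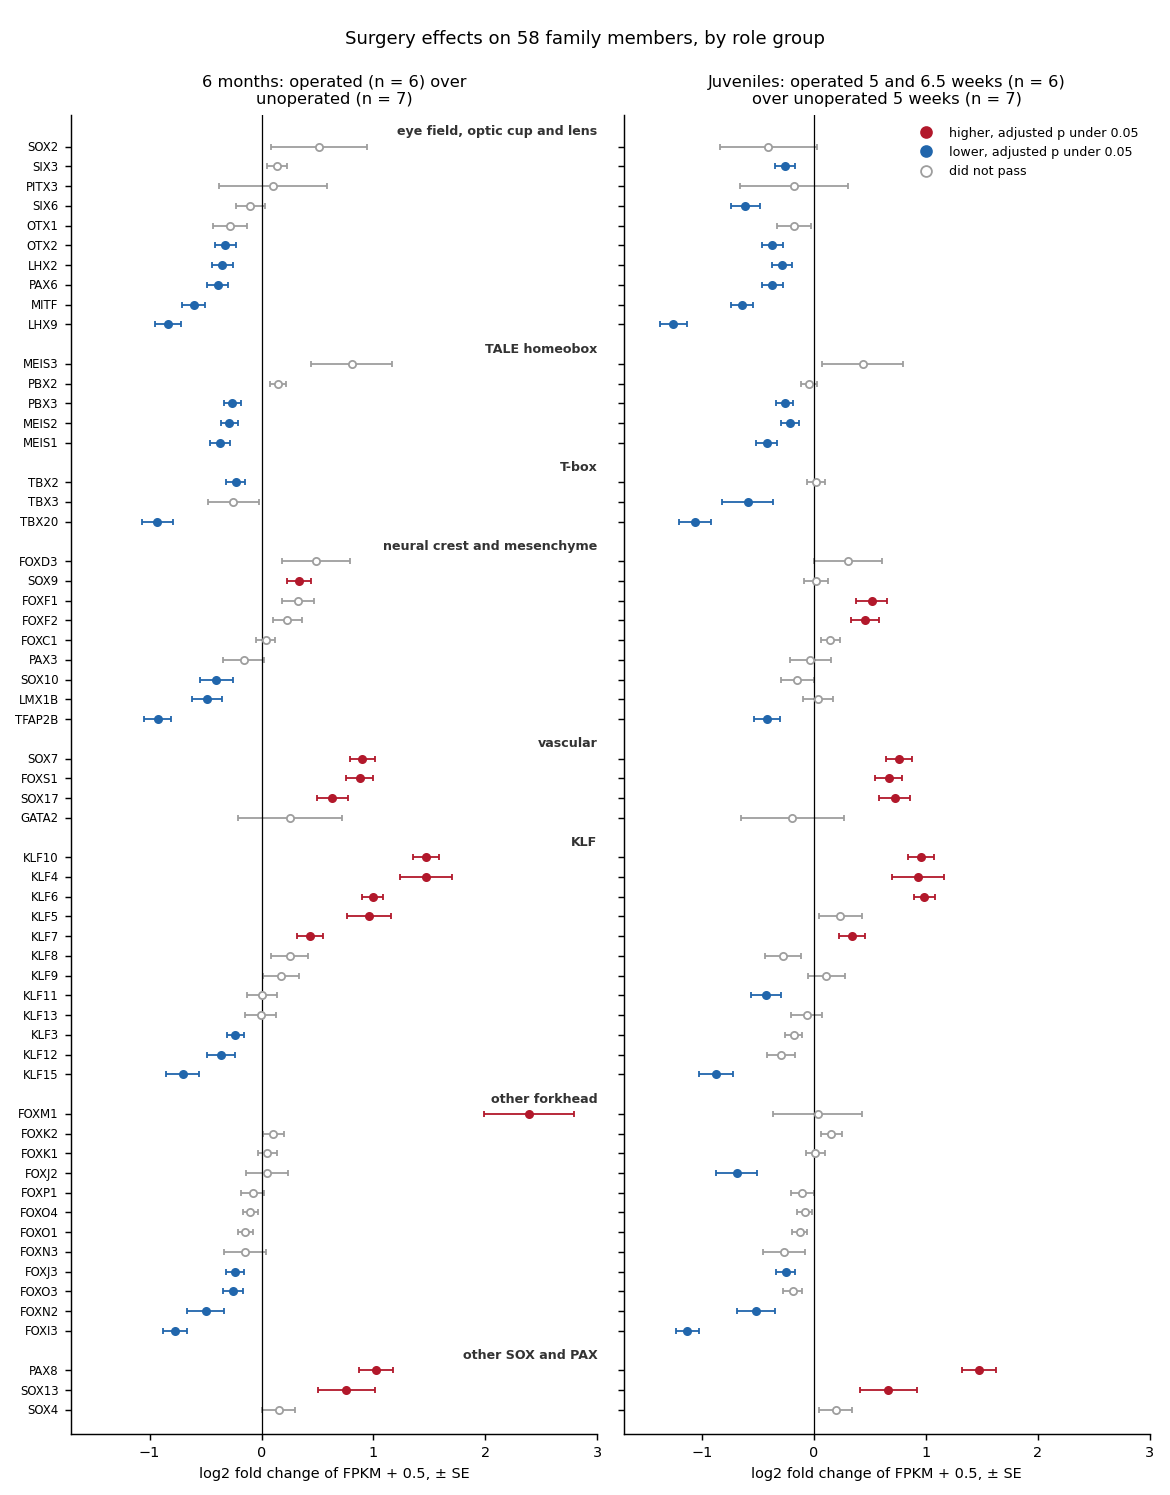
log2 fold change (± SE) of 58 members in operated over unoperated eyes at 6 months (left) and in juveniles (right), grouped by role; filled points passed the test. The eye field, TALE and T-box groups hold falls and no rises, and the vascular group holds rises and no falls. Of all genes 16% rose and 30.1% fell at 6 months, and 16.5% and 20.8% in juveniles. The role groups were chosen after seeing the data.

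Among the 10 genes of the eye field, optic cup and lens, 5 fell and none rose at 6 months, and 7 fell and none rose in juveniles. The falls are 50% and 70% of this group, beside 30.1% and 20.8% of all genes. Rises made up 16% and 16.5% of all genes. PAX6 had 210 to 364 FPKM (median 227) in operated 6-month eyes, against 300.1 to 374 FPKM (median 324) in unoperated 6-month eyes. At 5 weeks it had 230.2, 254 and 267 FPKM in operated eyes and at 6.5 weeks 234, 239 and 281 FPKM, against 300.2 to 346 FPKM (median 322) in unoperated 5-week eyes. All 6 operated juveniles lay below the 7 unoperated ones, whereas at 6 months 1 operated eye lay among the unoperated. The log2 change was -0.39 ± 0.09 (SE, adjusted p = 0.00137) at 6 months and -0.37 ± 0.09 (adjusted p = 0.0026) in juveniles.

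LHX9, a LIM homeobox gene known from gonad and forebrain development in mice, showed the widest separation of the group. It had 11.1 to 18.4 FPKM (median 13) in operated 6-month eyes and 21.2 to 27.3 FPKM (median 25) in unoperated ones. In juveniles it had 11.3, 14.7 and 14.7 FPKM in operated 5-week eyes and 6.02, 9.42 and 10.6 FPKM in operated 6.5-week eyes, against 23.9 to 32.2 FPKM (median 25.2) in unoperated 5-week eyes. The groups did not overlap at either age. The fall was 1.78-fold at 6 months (log2 -0.84 ± 0.12, adjusted p = 4.79e-06) and 2.39-fold in juveniles (log2 -1.26 ± 0.12, adjusted p = 1.18e-08).

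MITF, which in mouse and human drives melanocyte and pigmented epithelium genes, was likewise separated. It had 30.3 to 38.3 FPKM (median 33.8) in operated 6-month eyes and 47.5 to 59.4 FPKM (median 51.8) in unoperated ones, a change of -0.61 ± 0.10 on the log2 scale (adjusted p = 2.76e-05). In juveniles it had 27.1, 36.2 and 38.1 FPKM in operated 5-week eyes and 23.4, 29 and 40.6 FPKM in operated 6.5-week eyes, against 45.5 to 57.7 FPKM (median 49.9) in unoperated 5-week eyes, a change of -0.65 ± 0.10 (adjusted p = 1.57e-05). Of 13 measured pigment cell genes 10 fell at each age and 1 rose in juveniles, while 30.1% of all genes fell at 6 months and 20.8% in juveniles. SLC45A2 averaged 15.8 ± 2.57 FPKM in operated and 33.9 ± 3.31 FPKM in unoperated 6-month eyes, and PMEL, a melanosome matrix protein, 92.9 ± 44.4 and 311 ± 67.2 FPKM in the same groups (SD, n = 6 and 7). OCA2, a melanosome transporter, averaged 20.8 ± 3.66 FPKM in operated juveniles and 47.6 ± 5.43 FPKM in unoperated 5-week eyes.

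LHX2 and OTX2, a factor of the pigmented epithelium in mice, fell by less than LHX9 and MITF. LHX2 averaged 134 ± 15.1 FPKM in operated and 171 ± 16.5 FPKM in unoperated 6-month eyes (log2 -0.35, adjusted p = 0.00311), and 117 ± 17.9 and 142 ± 13.8 FPKM in operated and unoperated juveniles (log2 -0.29, adjusted p = 0.0152). The juvenile call of LHX2 was lost without replicate 1 of the operated 6.5-week eyes (log2 -0.22, adjusted p = 0.0614). OTX2 averaged 30.9 ± 6.06 FPKM in operated and 38.2 ± 2.87 FPKM in unoperated 6-month eyes (log2 -0.32, adjusted p = 0.0084), and changed by -0.37 in juveniles (adjusted p = 0.00372). The falls of LHX2 and OTX2 at both ages did not pass without the libraries high in CRYAA, at adjusted p of 0.0576 and 0.134 at 6 months and 0.119 and 0.0854 in juveniles. OTX1 did not pass, at -0.28 ± 0.15 at 6 months and -0.18 ± 0.15 in juveniles.

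The paired eye field genes SIX3 and SIX6 passed in juveniles and not at 6 months. SIX6 had 20.9, 26.4 and 36.4 FPKM in operated 5-week eyes and 13.7, 14 and 18.2 FPKM in operated 6.5-week eyes, against 24.2 to 38.9 FPKM (median 30.5) in unoperated 5-week eyes. The 3 operated 6.5-week eyes lay below all unoperated ones, as did 1 of the 3 operated 5-week eyes. With the operated 5-week eyes alone the change was -0.20 (adjusted p = 0.392), beside -0.62 ± 0.13 (adjusted p = 0.000551) with both. SIX3 averaged 23.9 ± 3.15 FPKM in operated juveniles and 28.7 ± 3.14 FPKM in unoperated 5-week eyes (log2 -0.26, adjusted p = 0.0261), and this call was lost in 4 of 26 fits that left out 1 library, with adjusted p up to 0.0874. The SIX3 call was also lost in 4 of 15 other alternatives, with adjusted p up to 0.372. At 6 months SIX3 changed by 0.14 ± 0.09 and SIX6 by -0.10 ± 0.13. The difference between the ages was 0.39 for SIX3 and 0.51 for SIX6, with adjusted p of 0.158 and 0.209, and SIX6 passed with the operated 6.5-week eyes alone (0.92, adjusted p = 0.0259).

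Where these genes fell, markers of other cells moved as well. Surgery counts of marker and other gene lists, here and below, stand beside the shares of all genes. Of these 16% rose and 30.1% fell at 6 months, and 16.5% rose and 20.8% fell in juveniles. Of 7 ciliary epithelium markers 5 fell and 1 rose at each age, and their summed level was 922 to 1816 FPKM in operated and 1806 to 2694 FPKM in unoperated 6-month eyes, and 822 to 1562 FPKM in operated juveniles against 1915 to 3936 FPKM in unoperated 5-week eyes. BEST2, a chloride channel of the unpigmented ciliary epithelium, averaged 3.33 ± 1.82 FPKM in operated and 25.8 ± 3.11 FPKM in unoperated 6-month eyes. All 10 measured macrophage markers rose at both ages, and CD163 averaged 51.4 ± 15.3 FPKM in operated and 4.9 ± 2.86 FPKM in unoperated 6-month eyes. The part of cell composition in the falls was not tested.

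SOX2 and PITX3, which act in the lens, were low and uneven. SOX2 had 0.62 to 8.52 FPKM (median 1.77) in operated and 0.96 to 2.02 FPKM (median 1.43) in unoperated 6-month eyes, and its log2 change was 0.51 ± 0.43 (adjusted p = 0.345). The highest values were in libraries high in CRYAA: SOX2 had 2.02 to 8.52 FPKM (median 4.67) in those 8 and 0.62 to 3.39 FPKM (median 1.45) in the other 18, and PITX3 had 1.47 to 7.71 FPKM (median 4.71) and 0.65 to 3.32 FPKM (median 1.36). Among operated 6-month eyes the 2 libraries high in CRYAA had 6.5 and 8.52 FPKM of SOX2, and the other 4 had 0.62 to 2.63 FPKM. PITX3 changed by 0.10 ± 0.48 at 6 months with all libraries, and by -0.51 (adjusted p = 0.045) without those high in CRYAA. PITX3 is in the table only through the unoperated 6-month eyes, the higher group in that fit, so the -0.51 is a description. PAX6 did not follow CRYAA, with 221 to 341 FPKM in the 8 libraries and 210 to 374 FPKM in the other 18.

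**Figure D3:**
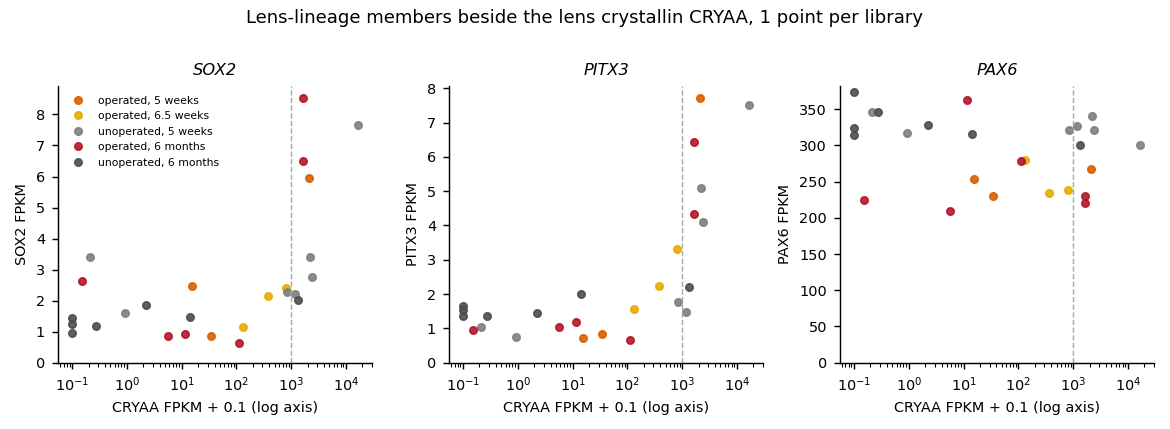
SOX2, PITX3 and PAX6 (FPKM) against CRYAA (FPKM + 0.1, log axis), with 1 point per library and the 1000 FPKM limit as a dashed line. SOX2 and PITX3 reach their highest values, 8.52 and 7.71 FPKM, to the right of the line, while PAX6 spans a like range on both sides.

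The TALE homeobox genes MEIS and PBX, which bind DNA as partners of PAX6 and other homeodomain proteins, held 4 falls among 6 genes at each age. That is 66.7%, beside 30.1% of all genes at 6 months and 20.8% in juveniles. MEIS1 had 31.6 to 42.1 FPKM (median 33.2) in operated 6-month eyes and 38.2 to 49.7 FPKM (median 45) in unoperated ones. All operated values but 1 lay below the unoperated range, and the change was -0.37 ± 0.09 (adjusted p = 0.00199). In juveniles MEIS1 averaged 28.7 ± 4.77 FPKM in operated and 38.5 ± 3.9 FPKM in unoperated eyes (log2 -0.42, adjusted p = 0.000711). This juvenile call was lost in 1 of 15 alternatives other than leaving out 1 library (adjusted p = 0.128).

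PBX3 fell by 0.26 on the log2 scale at both ages (adjusted p = 0.00677 and 0.00777), and its groups did not overlap at 6 months. MEIS2 fell by 0.29 at 6 months (adjusted p = 0.00378) and by 0.21 in juveniles (adjusted p = 0.0317), where 6 of 26 fits without 1 library lost the call, with adjusted p up to 0.077. Of 15 other alternatives 2 ended the juvenile call of PBX3 and 6 that of MEIS2 (adjusted p up to 0.052 and 0.11). With median-ratio scaling neither PBX3 nor MEIS2 passed at 6 months, and MEIS2 did not pass there without the libraries high in CRYAA. Their adjusted p rose to 0.0788 for PBX3 and 0.0714 for MEIS2. MEIS3 and PBX2 did not pass: MEIS3 changed by 0.81 ± 0.36 and 0.44 ± 0.36 and PBX2 by 0.15 ± 0.07 and -0.04 ± 0.07 at 6 months and in juveniles. MEIS3 passed at 6 months without replicate 3 of the operated eyes, at 1.12 (adjusted p = 0.0072), without replicates 2 or 6 of the unoperated eyes, at 0.95 and 1.01 (adjusted p = 0.0391 and 0.0234), and without the libraries high in CRYAA, at 1.31 (adjusted p = 0.013).

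Of the 3 T-box genes TBX20, a heart factor in mice that is also expressed in the optic cup, fell most. It had 9.22 to 14.1 FPKM (median 10) in operated and 18.3 to 23.3 FPKM (median 21.1) in unoperated 6-month eyes. Operated 5-week eyes had 10.6, 12.9 and 13.8 FPKM and operated 6.5-week eyes 4.07, 6.59 and 10.8 FPKM, against 16.1 to 23.2 FPKM (median 19.3) in unoperated 5-week eyes. The groups were apart at both ages, with changes of -0.93 ± 0.14 (adjusted p = 8.48e-06) and -1.06 ± 0.14 (adjusted p = 1.68e-06).

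TBX2 and TBX3, repressors that pattern the optic cup, each passed in 1 comparison. TBX2 averaged 62.9 ± 7.21 FPKM in operated and 73.5 ± 4.11 FPKM in unoperated 6-month eyes (log2 -0.23, adjusted p = 0.0272), and it changed by 0.02 ± 0.08 in juveniles. TBX3 had 33.1, 36.1 and 62.5 FPKM in operated 5-week and 29.3, 40.7 and 41.4 FPKM in operated 6.5-week eyes, against 30.6 to 93.5 FPKM (median 71) in unoperated 5-week eyes. These ranges overlapped, and the juvenile change of TBX3 was -0.59 ± 0.23 (adjusted p = 0.0441). Leaving out 1 library ended the TBX2 call in 4 and the TBX3 call in 11 of 26 fits, with adjusted p up to 0.0812 and 0.107. Of the other alternatives, 4 of 13 ended the TBX2 call and 6 of 15 the TBX3 call (adjusted p up to 0.2085 and 0.221).

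Among 10 genes of the neural crest and mesenchyme 4 fell and 1 rose at 6 months, and 1 fell and 2 rose in juveniles. At 6 months that is 40% and 10%, beside 30.1% and 16% of all genes. In juveniles it is 10% and 20%, beside 20.8% and 16.5%. TFAP2B, needed in mouse neural crest for the anterior chamber, had 9.51 to 19.7 FPKM (median 13.6) in operated and 23.3 to 28.8 FPKM (median 26.5) in unoperated 6-month eyes. In juveniles it had 13.8, 13.9 and 17.5 FPKM in operated 5-week and 17.8, 19.2 and 23.5 FPKM in operated 6.5-week eyes, against 19.4 to 28.6 FPKM (median 23) in unoperated 5-week eyes. The 6-month groups did not overlap and the juvenile groups did. The fall was 1.9-fold at 6 months (log2 -0.93 ± 0.12, adjusted p = 1.07e-06) and 1.34-fold in juveniles (log2 -0.42 ± 0.12, adjusted p = 0.00727), and with the operated 6.5-week eyes alone it did not pass (log2 -0.22, adjusted p = 0.272). The difference of the surgery effects was -0.51 ± 0.17 (adjusted p = 0.176), and it passed without replicate 6 of the operated 6-month eyes (-0.61, adjusted p = 0.036).

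LMX1B, mutated in human nail-patella syndrome with glaucoma, fell at 6 months, to 8.24 ± 2.32 FPKM in operated against 11.6 ± 1.9 FPKM in unoperated eyes (log2 -0.49 ± 0.14, adjusted p = 0.00511). Its values overlapped between the groups. In juveniles LMX1B changed by 0.03 ± 0.14 and did not pass. FOXC1 changed by 0.04 ± 0.08 at 6 months and by 0.15 ± 0.08 in juveniles; without replicate 3 of the operated 5-week eyes the juvenile value was 0.22 (adjusted p = 0.0268).

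SOX10, a factor of Schwann cells and melanocytes, averaged 15.9 ± 5.42 FPKM in operated and 20.5 ± 3.62 FPKM in unoperated 6-month eyes (log2 -0.40, adjusted p = 0.0276), a call lost in 6 of 26 fits without 1 library, with adjusted p up to 0.0915. Of 13 other alternatives 5 also ended the SOX10 call (adjusted p up to 0.201). Of 6 Schwann cell markers 2 fell at 6 months, S100B among them, and their part was not tested. SOX9, a neural crest and cartilage factor, rose to 8.2 ± 1.05 FPKM in operated against 6.39 ± 0.657 FPKM in unoperated 6-month eyes (log2 0.33, adjusted p = 0.0112). The SOX9 call was lost in 1 of 13 alternatives other than leaving out 1 library (adjusted p = 0.122). FOXF1 and FOXF2, forkhead genes of mouse mesenchyme, rose in juveniles, FOXF1 to 2.53 ± 0.268 FPKM in operated against 1.67 ± 0.476 FPKM in unoperated eyes (log2 0.51, adjusted p = 0.00604) and FOXF2 to 10.6 ± 1.14 against 7.61 ± 1.03 FPKM (log2 0.46, adjusted p = 0.00674). With the operated 5-week eyes alone neither passed (adjusted p = 0.0646 for FOXF1 and 0.0532 for FOXF2), and FOXF2 did not pass without the libraries high in CRYAA (adjusted p = 0.113). Their 6-month values were 0.33 ± 0.14 and 0.23 ± 0.13, and neither passed. PAX3 and FOXD3, early neural crest factors, had changes of -0.16 ± 0.18 and 0.49 ± 0.31 at 6 months and passed in neither comparison.

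Smooth muscle markers, which stand for the iris and ciliary muscles, moved beside this group: of 7 measured, 6 fell at each age and 1, DES, rose in juveniles. Their sum was 402 to 721 FPKM in operated and 853 to 1176 FPKM in unoperated 6-month eyes, and 489 to 784 FPKM in operated juveniles against 718 to 971 FPKM in unoperated 5-week eyes. Of 6 stromal fibroblast markers 2 rose and 1 fell at 6 months, and 1 rose and 3 fell in juveniles. Their part in the changes was not tested.

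**Figure D4:**
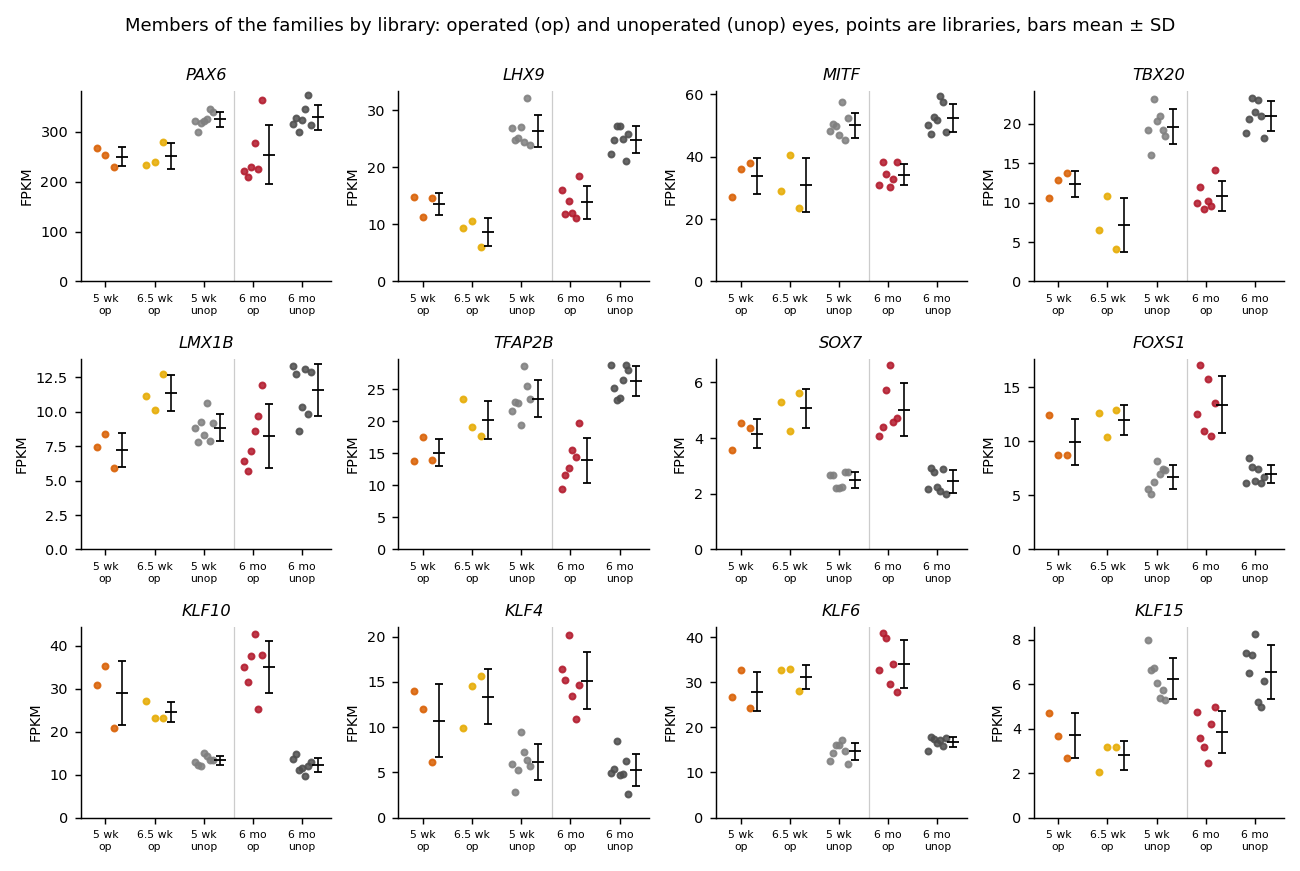
FPKM of 12 members in every library of the 5 groups (op, operated; unop, unoperated), with mean ± SD as black bars and each axis starting at 0. LHX9, MITF and TBX20 are separated downward and SOX7, FOXS1, KLF10 and KLF6 upward in operated eyes at both ages, while operated and unoperated LMX1B values overlap at both ages.

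Of the 4 vascular factors SOX7, SOX17 and FOXS1 rose at both ages, and GATA2 passed at neither. The 3 rises are 75% of this group, beside 16% of all genes at 6 months and 16.5% in juveniles. SOX7, a factor of endothelial cells, had 4.09 to 6.62 FPKM (median 4.65) in operated and 1.99 to 2.94 FPKM (median 2.25) in unoperated 6-month eyes. Operated 5-week eyes had 3.56, 4.36 and 4.54 FPKM and operated 6.5-week eyes 4.27, 5.31 and 5.62 FPKM, against 2.2 to 2.79 FPKM (median 2.67) in unoperated 5-week eyes. The groups were apart at both ages, and SOX7 was 1.87-fold higher at 6 months (log2 0.90 ± 0.11, adjusted p = 7.37e-07) and 1.69-fold higher in juveniles (log2 0.76 ± 0.11, adjusted p = 9.98e-06). SOX17, which marks arterial endothelium in mice, averaged 7.78 ± 1.92 FPKM in operated and 4.77 ± 0.703 FPKM in unoperated 6-month eyes (log2 0.63, adjusted p = 0.000693), and 6.56 ± 1.6 and 3.76 ± 0.852 FPKM in operated and unoperated juveniles (log2 0.72, adjusted p = 0.000226). With the operated 5-week eyes alone the juvenile change of SOX17 was 0.44 and did not pass (adjusted p = 0.065), and with the 6.5-week eyes alone it passed (adjusted p = 9.27e-05). FOXS1, expressed around vessels in mice, had 10.5 to 17.1 FPKM (median 13.1) in operated and 6.17 to 8.44 FPKM (median 6.74) in unoperated 6-month eyes, without overlap (log2 0.88 ± 0.12, adjusted p = 3e-06), and rose by 0.67 in juveniles (adjusted p = 0.000116).

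GATA2, a factor of blood and endothelial cells, changed by 0.25 ± 0.46 at 6 months and by -0.19 ± 0.46 in juveniles. It had 4.86 to 6.83 FPKM in 6 of the 7 unoperated 6-month eyes and was listed at 0 in replicate 5. Of 9 measured endothelial markers 7 rose and none fell at 6 months, and 6 rose and none fell in juveniles. Their sum was 175 to 315 FPKM in operated and 99.9 to 147 FPKM in unoperated 6-month eyes, and 251 to 347 FPKM in operated juveniles against 124 to 150 FPKM in unoperated 5-week eyes. CDH5, the endothelial cadherin, averaged 33.3 ± 6.39 FPKM in operated and 15.6 ± 2.19 FPKM in unoperated 6-month eyes. Their part in the SOX7, SOX17 and FOXS1 rises was not tested.

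The Krüppel-like factors moved both ways: of 12, 5 rose and 3 fell at 6 months, and 4 rose and 2 fell in juveniles. At 6 months that is 41.7% and 25%, beside 16% and 30.1% of all genes. In juveniles it is 33.3% and 16.7%, beside 16.5% and 20.8%. KLF10, induced by TGF-beta in human cells, had 25.2 to 42.8 FPKM (median 36.4) in operated and 9.63 to 14.8 FPKM (median 12.1) in unoperated 6-month eyes. Operated 5-week eyes had 20.8, 30.9 and 35.4 FPKM and operated 6.5-week eyes 23.2, 23.2 and 27.2 FPKM, against 12 to 14.9 FPKM (median 13.5) in unoperated 5-week eyes. No operated value fell within the unoperated range. The rise was 2.77-fold at 6 months (log2 1.47 ± 0.12, adjusted p = 4.3e-10) and 1.94-fold in juveniles (log2 0.96 ± 0.12, adjusted p = 5.58e-07).

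KLF6, an injury-induced member in several mammalian tissues, had 27.8 to 40.9 FPKM (median 33.3) in operated and 14.8 to 17.9 FPKM (median 17.1) in unoperated 6-month eyes. In juveniles it had 24.3, 26.9 and 32.7 FPKM in operated 5-week and 28, 32.7 and 32.9 FPKM in operated 6.5-week eyes, against 11.9 to 17.2 FPKM (median 14.8) in unoperated 5-week eyes. The groups were apart at both ages. KLF6 was 1.99-fold higher at 6 months and 1.98-fold higher in juveniles, each a log2 change of 0.99 ± 0.10 (adjusted p = 1.05e-08 and 1.59e-08). KLF4, which in mice guards epithelial barriers and endothelial quiescence, had 10.9 to 20.2 FPKM (median 14.9) in operated and 2.61 to 8.47 FPKM (median 4.9) in unoperated 6-month eyes, and rose 2.77-fold (log2 1.47 ± 0.23, adjusted p = 1.61e-05). In juveniles the ranges of KLF4 overlapped and the rise was 1.9-fold (log2 0.93 ± 0.23, adjusted p = 0.00266). With the operated 5-week eyes alone the juvenile change of KLF4 was 0.75 (adjusted p = 0.0571).

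KLF5, a factor of proliferating epithelium and of smooth muscle after vessel injury in mice, had 18 to 46.1 FPKM (median 24.3) in operated and 10.2 to 16.9 FPKM (median 14.7) in unoperated 6-month eyes. The groups were apart, and the change was 0.96 ± 0.20 (adjusted p = 0.000315). With its highest transcript alone it did not pass (adjusted p = 0.0633). In juveniles KLF5 changed by 0.24 ± 0.20 and did not pass, and the difference of the surgery effects, 0.73 ± 0.28, did not pass either (adjusted p = 0.248). KLF7 rose by 0.43 at 6 months (adjusted p = 0.00427) and by 0.34 in juveniles (adjusted p = 0.0259), where 5 of 26 fits without 1 library lost the call, with adjusted p up to 0.0835. KLF7 also lost its juvenile call in 4 of 15 other alternatives (adjusted p up to 0.198). Its 6-month call was lost with equal-sum scaling and without the libraries high in CRYAA (adjusted p up to 0.0644).

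KLF15, a glucocorticoid-responsive regulator of metabolism in mice, went the other way. It had 2.47 to 4.96 FPKM (median 3.9) in operated and 4.96 to 8.27 FPKM (median 6.49) in unoperated 6-month eyes, with the highest operated value equal to the lowest unoperated one at this rounding. Operated 5-week eyes had 2.7, 3.68 and 4.72 FPKM and operated 6.5-week eyes 2.03, 3.16 and 3.19 FPKM, against 5.27 to 7.98 FPKM (median 6.04) in unoperated 5-week eyes, without overlap. The falls were 1.63-fold (log2 -0.71 ± 0.15, adjusted p = 0.000539) and 1.83-fold (log2 -0.87 ± 0.15, adjusted p = 6.48e-05). KLF12 and KLF3 fell at 6 months by 0.36 and 0.24 (adjusted p = 0.0214 and 0.014), KLF12 not without replicate 4 of the operated eyes (log2 -0.29, adjusted p = 0.0722), and KLF11 fell in juveniles by 0.43 (adjusted p = 0.0146). Both 6-month calls were lost with median-ratio or upper-quartile scaling, and that of KLF3 also without the libraries high in CRYAA. Their adjusted p rose to 0.0892 for KLF12 and 0.184 for KLF3. The KLF11 call was lost in 2 of 15 alternatives other than leaving out 1 library (adjusted p up to 0.258). KLF9, another glucocorticoid-responsive member, changed by 0.17 ± 0.16 and 0.11 ± 0.16, and KLF8 and KLF13 passed in neither comparison.

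KLF2, a flow-sensitive endothelial factor, was not among the listed transcripts; of 6 genes known as its endothelial targets 5 rose at 6 months and 3 in juveniles. PROCR, the endothelial protein C receptor, averaged 13.4 ± 2.69 FPKM in operated and 3.03 ± 0.719 FPKM in unoperated 6-month eyes, and 9.82 ± 3.56 and 2.65 ± 0.328 FPKM in operated and unoperated juveniles.

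Of 12 further forkhead genes 1 rose and 4 fell at 6 months, and none rose and 4 fell in juveniles. The falls are 33.3% at each age, beside 30.1% of all genes at 6 months and 20.8% in juveniles. The riser, FOXM1, is in the table only through the operated 6-month eyes. FOXI3, known from hair and tooth development in dogs and mice, had 5.39 to 9.23 FPKM (median 6.99) in operated and 10.2 to 13.8 FPKM (median 12.2) in unoperated 6-month eyes. Operated 5-week eyes had 4.74, 5.56 and 5.82 FPKM and operated 6.5-week eyes 4.27, 4.62 and 4.73 FPKM, against 9.07 to 14.5 FPKM (median 11.6) in unoperated 5-week eyes. The groups were apart at both ages, with falls of 1.71-fold (log2 -0.77 ± 0.11, adjusted p = 2.5e-06) and 2.19-fold (log2 -1.13 ± 0.11, adjusted p = 9.48e-09).

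FOXN2 fell by 0.50 at 6 months (adjusted p = 0.017) and by 0.52 in juveniles (adjusted p = 0.0166), and FOXJ3 by 0.24 and 0.25 (adjusted p = 0.0221 and 0.0179). Among fits without 1 library, these calls were lost without replicate 2 of the operated 6-month eyes for FOXJ3 at 6 months (log2 -0.19, adjusted p = 0.066), without replicate 3 of the operated 6.5-week eyes for both in juveniles (log2 -0.15 and -0.45, adjusted p = 0.0734 and 0.0515, FOXJ3 first), and without replicate 1 of the operated 5-week eyes for FOXN2 (log2 -0.32, adjusted p = 0.0743). The 6-month call of FOXJ3 was also lost with median-ratio or upper-quartile scaling and without the libraries high in CRYAA (adjusted p up to 0.233). That of FOXN2 was lost with median-ratio scaling, its highest transcript alone, or lens and retina covariates (adjusted p up to 0.472). Of 15 alternatives other than leaving out 1 library, 3 ended the juvenile call of FOXJ3 and 4 that of FOXN2. FOXJ2 fell in juveniles, to 12 ± 3.92 FPKM in operated against 18.8 ± 1.76 FPKM in unoperated eyes (log2 -0.69, adjusted p = 0.00463), and with the operated 5-week eyes alone it did not pass (log2 -0.57, adjusted p = 0.069).

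The FOXO factors, which are held out of the nucleus by insulin signalling and act in stress and growth arrest, moved little. FOXO3 averaged 23.1 ± 2.16 FPKM in operated and 27.8 ± 3.23 FPKM in unoperated 6-month eyes (log2 -0.25, adjusted p = 0.0181), and its juvenile change of -0.19 did not pass (adjusted p = 0.0845). The 6-month call of FOXO3 was lost with median-ratio or upper-quartile scaling and without the libraries high in CRYAA (adjusted p up to 0.187). FOXO1 changed by -0.15 ± 0.07 and -0.13 ± 0.07, and FOXO4 by -0.10 ± 0.07 and -0.08 ± 0.07, neither passing. Of 12 FOXO target genes 3 rose and 6 fell at 6 months, and 3 rose and 5 fell in juveniles. TXNIP, a glucose-responsive inhibitor of thioredoxin, averaged 92.4 ± 14.9 FPKM in operated and 269 ± 21.4 FPKM in unoperated 6-month eyes, and GADD45A, a growth arrest gene, 50.6 ± 8.94 and 17 ± 1.55 FPKM in the same groups.

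FOXM1, the forkhead activator of late cell cycle genes, stood apart from the other members. It had 2.46, 2.86, 3.03, 3.46, 4.06 and 6.79 FPKM in operated 6-month eyes, whereas it was listed at 0 in 4 of the 7 unoperated 6-month eyes and had 0.49, 1.12 and 1.23 FPKM in the other 3. The groups did not overlap, and the fitted log2 change was 2.39 ± 0.40, a size that depends on the pseudocount and ran from 1.8 to 3.78 over the alternatives. FOXM1 is in the table only through the operated 6-month eyes, the group where it is high, so this separation is a description. In juveniles it had 0, 1.21 and 4.78 FPKM in operated 5-week and 3.26, 3.42 and 3.82 FPKM in operated 6.5-week eyes, against 0.95 to 2.81 FPKM (median 2.21) in unoperated 5-week eyes, and the change was 0.03 ± 0.40 (adjusted p = 0.957). All 10 FOXM1 target genes measured rose at both ages. CCNB2, a mitotic cyclin, averaged 15.1 ± 4.78 FPKM in operated and 0.547 ± 0.127 FPKM in unoperated 6-month eyes, and 11.2 ± 2.45 and 4 ± 1.39 FPKM in operated and unoperated juveniles.

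Of the remaining SOX and PAX genes, PAX8 and SOX13 rose at both ages and SOX4 passed at neither. PAX8, a thyroid and kidney factor, had 0.51 to 1.58 FPKM (median 0.68) in operated and 0.08 to 0.28 FPKM (median 0.13) in unoperated 6-month eyes. Operated 5-week eyes had 1.03, 1.12 and 1.14 FPKM and operated 6.5-week eyes 1.27, 1.36 and 1.65 FPKM, against 0.06 to 0.18 FPKM (median 0.13) in unoperated 5-week eyes. The groups were apart at both ages, at levels of at most 1.65 FPKM, with log2 changes of 1.02 ± 0.15 at 6 months (adjusted p = 8.28e-06) and 1.48 ± 0.15 in juveniles. PAX8 is in the table only because the operated juveniles exceed 1 FPKM, so its juvenile separation is a description. SOX13, a member of the SOXD subgroup, averaged 8.06 ± 1.6 FPKM in operated and 5.01 ± 2.27 FPKM in unoperated 6-month eyes (log2 0.76, adjusted p = 0.0186), and 7.98 ± 2.78 and 4.75 ± 1.3 FPKM in operated and unoperated juveniles (log2 0.66, adjusted p = 0.0447). The juvenile call of SOX13 was lost in 12 of 26 fits without 1 library, with adjusted p up to 0.114. It was also lost in 6 of 15 other alternatives (adjusted p up to 0.44), and the 6-month call of SOX13 in 1 of 13 (adjusted p = 0.0512).

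Age was compared in unoperated eyes, 6 months over 5 weeks. Of the members 4 were higher and 6 lower, or 6.67% and 10%, beside 11.4% and 9.46% of all genes, of which 20.8% changed. FOXM1 was lower at 6 months, where it was listed at 0 in 4 of 7 libraries, than at 5 weeks, where all 7 had 0.95 FPKM or more (log2 -1.69 ± 0.38, adjusted p = 0.00287). Without the libraries high in CRYAA it did not pass (log2 -1.32, adjusted p = 0.217). Of 10 FOXM1 targets 7 were lower at 6 months. MEIS3 averaged 1.96 ± 1.43 FPKM at 6 months and 4.13 ± 0.703 FPKM at 5 weeks (log2 -1.11, adjusted p = 0.026), a call lost without replicate 5 or 7 of the 6-month eyes (log2 -0.95 and -0.94, adjusted p = 0.0607 and 0.0638). MEIS3 is in the table only through operated juveniles and unoperated 5-week eyes, where it is higher, so this age difference is a description.

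The eye field genes SIX3 and SIX6 were both lower in the older eyes. SIX3 had 18.4 to 24.7 FPKM (median 20.1) at 6 months and 24.4 to 34 FPKM (median 28.5) at 5 weeks, and SIX6 had 18.9 to 26.3 FPKM (median 23.1) at 6 months and 24.2 to 38.9 FPKM (median 30.5) at 5 weeks. The ranges of the ages overlapped slightly for both genes, and the changes were -0.45 ± 0.09 (adjusted p = 0.00077) and -0.46 ± 0.12 (adjusted p = 0.0111). Of 13 alternatives other than leaving out 1 library, 1 ended the SIX3 call and 1 the SIX6 call (adjusted p up to 0.064 and 0.062). PBX2 was lower by 0.23 (adjusted p = 0.0192) and KLF11 by 0.37 (adjusted p = 0.0407), the KLF11 call being lost in 10 of 26 fits without 1 library, with adjusted p up to 0.0887. Of the 13 other alternatives 2 ended the PBX2 call and 4 the KLF11 call (adjusted p up to 0.198 and 0.55).

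The 4 higher members were FOXC1, FOXP1, LHX2 and SOX9, with log2 changes of 0.27, 0.32, 0.27 and 0.28 (adjusted p = 0.0195, 0.0262, 0.0313 and 0.0456). FOXC1 had 33.4 to 39.3 FPKM (median 35.7) at 6 months and 28.4 to 31.5 FPKM (median 30) at 5 weeks, without overlap. FOXP1 averaged 39.2 ± 3.99 FPKM at 6 months and 31.3 ± 2.16 FPKM at 5 weeks, also without overlap. The ages did not overlap in 3 of the 60 members, beside 8.24% of all genes. None of the 4 rises passed with the libraries scaled to an equal upper quartile or to an equal sum, with marker levels of lens and retina as covariates, or without the libraries high in CRYAA. Leaving out 1 library ended the calls of FOXP1, LHX2 and SOX9 in 3, 6 and 11 of 26 fits, with adjusted p up to 0.0556, 0.0705 and 0.0961.

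**Figure D5:**
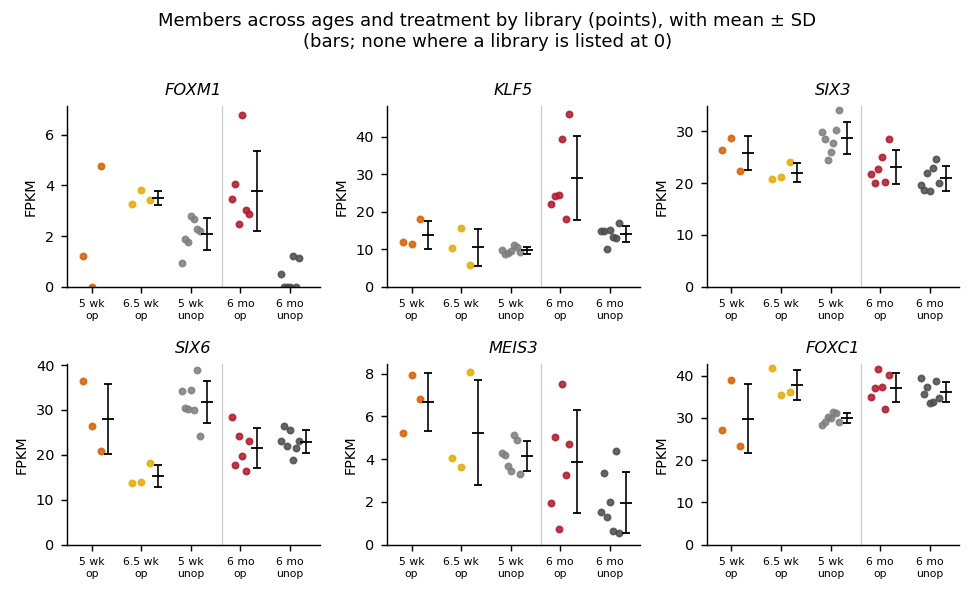
FPKM of FOXM1, KLF5, SIX3, SIX6, MEIS3 and FOXC1 in every library of the 5 groups (op, operated; unop, unoperated), with mean ± SD as bars and no bar where a library is listed at 0. FOXM1 is lowest in unoperated 6-month eyes, none above 1.23 FPKM, and SIX3 and SIX6 are higher in unoperated eyes at 5 weeks than at 6 months.

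The surgery effects at the 2 ages were set against each other directly. FOXM1 was the 1 member under the threshold, with a difference of 2.36 ± 0.56 (log2, 6 months minus juveniles, adjusted p = 0.0356), beside 0.734% of all genes with a positive and 0.355% with a negative difference, 1.09% together. Because FOXM1 is listed only through the operated 6-month eyes, this value is a description and not independent evidence of a difference. It stayed under the threshold in 21 of 40 alternatives; it was lost with a pseudocount of 0.1 (adjusted p = 0.0513), with marker levels of lens and retina as covariates (adjusted p = 0.0518), without the libraries high in CRYAA (adjusted p = 0.454), with the operated 6.5-week eyes alone (1.72, adjusted p = 0.21) and in 15 of 26 fits without 1 library, with adjusted p up to 0.0749. At an unadjusted p under 0.05 there were 15 members, 11 positive and 4 negative, beside 4.6% and 8.29% of all genes. Of the proliferation markers 5 of 6 had a larger change at 6 months; their sum was 35.7 to 67.3 FPKM in operated and 6.17 to 13 FPKM in unoperated 6-month eyes, and 34.5 to 64.2 FPKM in operated juveniles against 21.5 to 35 FPKM in unoperated 5-week eyes.

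Operated eyes at 6.5 weeks were also set against operated eyes at 5 weeks. Limma called none of the members, beside 0.00773% of all genes higher and 0.00773% lower, 0.0155% together. At an unadjusted p under 0.05 there were 12 members, 7 higher and 5 lower at 6.5 weeks, beside 4.95% and 5.41% of all genes. In 10 members the 2 groups of 3 did not overlap, beside 11.3% of all genes. On the higher side LMX1B had 10.1, 11.1 and 12.7 FPKM at 6.5 weeks and 5.91, 7.44 and 8.38 FPKM at 5 weeks. LHX9 and SIX6 lay on the lower side, with log2 changes of -0.64 ± 0.18 and -0.82 ± 0.19 (adjusted p = 0.195 and 0.135). Without replicate 2 of the operated 6.5-week eyes TBX20 (log2 -1.17, adjusted p = 0.00311) and LHX9 (log2 -0.80, adjusted p = 0.0497) passed, as did FOXC1 without replicate 2 of the operated 5-week eyes (log2 0.57, adjusted p = 0.0252).

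Other genes around these families were counted in the same way. Of 14 measured eye development factors outside the families 3 rose and 8 fell at 6 months, and 2 rose and 8 fell in juveniles. RAX, a retinal homeobox gene, averaged 12.7 ± 2.44 FPKM in operated and 26 ± 2.05 FPKM in unoperated 6-month eyes, and ZIC1 25.2 ± 3.25 and 46.1 ± 3.14 FPKM in the same groups. HEY2, a Notch target, averaged 6.01 ± 0.786 FPKM in operated juveniles and 11.1 ± 1.3 FPKM in unoperated 5-week eyes. Of 14 measured partners and cofactors 3 rose and 4 fell at each age; DACH1, a transcriptional co-regulator of eye development, averaged 24.2 ± 3.11 FPKM in operated and 37.1 ± 1.93 FPKM in unoperated 6-month eyes.

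In the families 14 symbols were built from more than 1 transcript, with 38 transcripts in all. Tested on their own among the 16725 transcripts, 1 rose and 16 fell at 6 months, beside 12.8% and 23% of all transcripts, and 1 rose and 10 fell in juveniles, beside 13.1% and 15.6%. The single riser at both ages was variant X1 of KLF5, at 12.9 ± 1.17 FPKM in operated and 7.25 ± 0.812 FPKM in unoperated 6-month eyes (log2 0.79, adjusted p = 6.18e-06), and at 7 ± 1.46 and 4.71 ± 0.683 FPKM in operated and unoperated juveniles (log2 0.51, adjusted p = 0.00105). The other KLF5 transcript, 55.5% of the gene in operated 6-month eyes, did not pass at 6 months (adjusted p = 0.0748). FOXP1 as a gene did not pass after surgery, while its variant X3 fell at 6 months (log2 -0.38, adjusted p = 0.000208) and variant X11 had 12.9 ± 8.01 FPKM in operated and 6.79 ± 2.05 FPKM in unoperated 6-month eyes (log2 0.75, adjusted p = 0.245). The juvenile fall of FOXJ2 lay in variant X1 (log2 -1.07, adjusted p = 0.00548), and variant X2 had -0.24 (adjusted p = 0.154). Variants of a gene share sequence, and how their reads were divided is not stated in the labels, so values of single variants are less certain than those of the gene.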

How the data were processed

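RNA-seq of 26 iris and ciliary body libraries in 5 groups was used; 23 cornea samples are not analysed here. The deposited table holds FPKM per transcript, per the file headers, and no counts, so the depth behind each value is unknown and no counting interval is given. RSEM 1.2.12, Bowtie2 2.2.5, HISAT2 2.0.4 and HISAT are listed, with no step assigned to them, per the submitters' processing notes. No source used here gives the genome build.

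FPKM was summed per symbol from 16725 transcripts, giving 12942 genes; 9750 transcripts matched a RefSeq table of another build used for names only, and 258 transcripts of 196 symbols were renamed. A filter of 1 FPKM in at least 3 libraries removed 0 genes. log2(FPKM + 0.5) was tested with limma 3.58.1 in R 4.3.3 (trend, robust, 1 mean per group over all libraries), with Benjamini-Hochberg adjustment over all genes and a threshold of 0.05. Fold changes on this scale understate the change of low genes. The procedure was tested on simulated data: of 200 genes changed by 1 on the log2 scale, 89% were found at 6 months, 90% in juveniles, 89.5% for age and 79.5% for the difference of the surgery effects, with 5 to 9 false calls in each.

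The members and gene lists were chosen with earlier results of these data known; role groups and the test of single transcripts were chosen after seeing the data. Named members were a fixed set of anchors, the 6 largest called rises and falls in each comparison, and called members of a family and direction where there were 5 or fewer; a few more members are given with values to complete their role group. Of each list the 4 genes with the smallest p could be named. The alternatives covered scaling, pseudocount, filter, transcripts per symbol, variance model, samples in the fit, lens and retina signal, and leaving out each library. Results of a few genes are not reported here.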

Additional observations from a re-analysis of the deposited data

Results flagged for a closer look

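In groups of 6 or 7 libraries, 180 sets of member values were screened for a library far from the others of its group, and 14 (7.78%) had one; chance gives about 1 in 20. Those reported here follow. In operated 6-month eyes FOXM1 reached 6.79 FPKM in replicate 4, MEIS1 42.1 FPKM in replicate 6, PAX3 1.54 FPKM in replicate 3 and TBX3 106.8 FPKM in replicate 1, each above the rest, and SOX4 was low at 3.89 FPKM in replicate 5. In unoperated 6-month eyes FOXK2 was high at 18.7 FPKM in replicate 6, FOXO1 at 10.3 FPKM in replicate 4 and TBX3 at 90.7 FPKM in replicate 5, and GATA2 was listed at 0 in replicate 5. In unoperated 5-week eyes replicate 2 was high in GATA2 (6.13 FPKM), SOX13 (7.39 FPKM) and SOX2 (7.65 FPKM). Replicate 6 of the same group was high in LHX9 (32.2 FPKM).

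The surgery effect on FOXM1 differed between the ages by 2.36 on the log2 scale, larger at 6 months, in a test of the difference itself whose call held in 21 of 40 alternatives. FOXM1 is in the table only through the operated 6-month eyes, where it is high, so the value is a description.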

How the results depend on the processing

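Of the members called, 19 of 34 at 6 months and 11 of 31 in juveniles were called in every alternative that gave a value, and 0 of 10 between the ages. Shares of all genes in the same fits are not given in this section. Its counts, also those without 1 library, show only how the calls vary and are no results about the members. At 6 months, median-ratio scaling gave 12 lower. In juveniles, the operated 5-week eyes alone gave 6 higher and 12 lower, and leaving out the libraries over 1000 FPKM of CRYAA gave 10 lower. For age, the higher count was 1 with median-ratio scaling or the highest transcript alone, 0 with upper-quartile or equal-sum scaling, lens and retina covariates or without the CRYAA libraries, and 11 with only the groups compared; the lower count was 3 without the 3 late-numbered samples (5-week eyes whose label numbers follow those of the 6-month eyes) and 1 without the CRYAA libraries. The difference of the surgery effects gave 0 higher with a pseudocount of 0.1, the covariates, without the CRYAA libraries, or at a mean of at least 5 FPKM, which leaves 49 members and drops FOXM1. The cause was not tested. PITX3 at 6 months turned to -0.51 without the CRYAA libraries, against 0.10 with them. Because PITX3 is listed only through the unoperated 6-month eyes, the -0.51 is a description.

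Leaving out each library in turn gave 12 to 15 higher and 19 to 24 lower at 6 months, 9 to 12 and 16 to 21 in juveniles, 2 to 8 and 4 to 6 for age, 0 to 2 and 0 to 1 for the difference, and 0 to 1 and 0 to 2 at 6.5 against 5 weeks. No paired analysis was possible because the labels give the groups no shared animal or replicate numbers. Surgery and growth cannot be told apart in operated 6.5-week eyes, and the depth behind the FPKM values is unknown.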
